A study of Homo sapiens with 24 samples.

Results

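The oxidative phosphorylation genes described here are nuclear genes for subunits of respiratory complexes I to IV. A list of 39 symbols was taken, and 37 of them had a probe set annotated to that symbol alone, among 18418 genes measured in this way. Where a gene had several such probe sets, the one with the highest mean over all arrays was read. The 37 genes were 21 of complex I, 3 of complex II, 6 of complex III and 7 of complex IV. NDUFA4, whose current symbol is COXFA4, was counted with complex IV. SDHB and UQCRFS1 were not analysed here. RNA came from 2 human B-lymphoblastoid lines, GM10861 and GM10855, which are B cells immortalised with Epstein-Barr virus. Calcitriol is the active hormone made from vitamin D. Each line was treated for 36 h with calcitriol and estrogen together, with calcitriol alone or with estrogen alone, or was left untreated and labelled 0 h. This gave 8 groups of 3 arrays, 24 arrays in all. The sources used here name no dose, estrogen compound or vehicle. In comparisons with untreated cells, 36 h in culture and the agents cannot be told apart. Separate cultures for the 3 arrays of a group are not stated in the labels, so p-values measure the spread between arrays, which may be technical.

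The respiratory chain sits in the inner mitochondrial membrane. Complex I takes electrons from NADH and complex II takes them from succinate. Both pass them to ubiquinone, complex III moves them on to cytochrome c, and complex IV hands them to oxygen. Complexes I, III and IV pump protons, and ATP synthase uses the gradient to make ATP. Complex II is built from nuclear genes alone, whereas the other complexes also hold subunits encoded by mitochondrial DNA. Dividing B cells rely on this chain for ATP and for the oxidation of NADH.

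Marker genes were read first, as a description, since readings of different probe sets are not comparable between genes. The mean log2 signal over 8 measured B cell markers lay between 7.71 and 8.28 on every array. The same mean was 4.17 to 4.78 for 6 T cell markers, 4.37 to 4.72 for 6 monocyte markers, 3.93 to 4.32 for 4 NK cell markers, 4.34 to 4.54 for 5 fibroblast markers and 4.70 to 5.22 for 2 erythroid markers. Among the T cell markers TRAT1, an adaptor of the T cell receptor, stood apart, with a mean of 3.38 in GM10861 and 5.94 in GM10855. Array medians ran between 5.38 and 5.50, same-group arrays correlated at 0.985 to 0.993, and no 2 arrays held identical values.

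The members were mostly bright probe sets. On the mean log2 signal over 24 arrays, 35 of 37 lay at or above the median gene, from the 44.1st to the 99.2nd percentile. The highest readings were 10.51 for UQCRC2, a core protein of complex III, 9.53 for COX6C, a small subunit of complex IV, and 9.37 for SDHA, the flavoprotein that oxidises succinate in complex II. The lowest were 5.54 for UQCRB and 5.70 for UQCRH, 2 small subunits of complex III, and 5.83 for NDUFS4, an accessory subunit of complex I. Probe sets differ in how strongly they hybridise, so these readings give no order of transcript amounts. The within-group SD had a median of 0.118 over the members, with a range of 0.0600 for NDUFS3 to 0.380 for COX7B, against a median of 0.130 over all genes. The chosen probe sets of NDUFV2, SDHC and SDHD have IDs that lie among those of genes on chromosomes 19, 17 and 1, while the genes are on chromosomes 18, 1 and 11, so near-identical copies may contribute to their values.

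The first question was how the chain's genes responded to the agents in both lines together. No member passed an adjusted p of 0.05 (limma, Benjamini-Hochberg over 21214 probe sets) in any of the 8 comparisons averaged over the lines. For calcitriol and estrogen against untreated, 0 of 37 members were called, against 1.15% of all probe sets, and 5 members had an unadjusted p under 0.05, as did 10.9% of probe sets. Members called numbered 0 for calcitriol against untreated, where 0.679% of probe sets were called, and 1 member had an unadjusted p under 0.05, as did 6.55% of probe sets. For estrogen against untreated, 0 members and 0.0% of probe sets were called, and 2 members had an unadjusted p under 0.05, as did 5.17% of probe sets. In the mean of the 3 treated groups against untreated, 0 members and 0.457% of probe sets were called, and 1 member had an unadjusted p under 0.05, as did 7.73% of probe sets.

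Direct comparisons between groups at 36 h hold the time constant, and 0 members were called in each (limma). Both agents against estrogen alone called 0 members and 0.754% of probe sets, with 2 members and 7.94% of probe sets at an unadjusted p under 0.05. Both agents against calcitriol alone also called 0 members and 0.0% of probe sets, with 6 members and 8.35% of probe sets at an unadjusted p under 0.05. Calcitriol against estrogen called 0 members and 0.57% of probe sets, with 2 members and 7.43% of probe sets at an unadjusted p under 0.05. The interaction, both agents minus the sum of the single responses, also uses the untreated 0 h arrays. It called 0 members and 0.0% of probe sets, with 2 members and 4.41% of probe sets at an unadjusted p under 0.05. The intervals bound the changes. In calcitriol against untreated, the 95% interval of 30 of 37 members lay within 0.25 of 0 on the log2 scale, and that of 36 lay within 0.5. In both agents against untreated, 22 lay within 0.25 and 35 within 0.5.

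**Figure D1:**
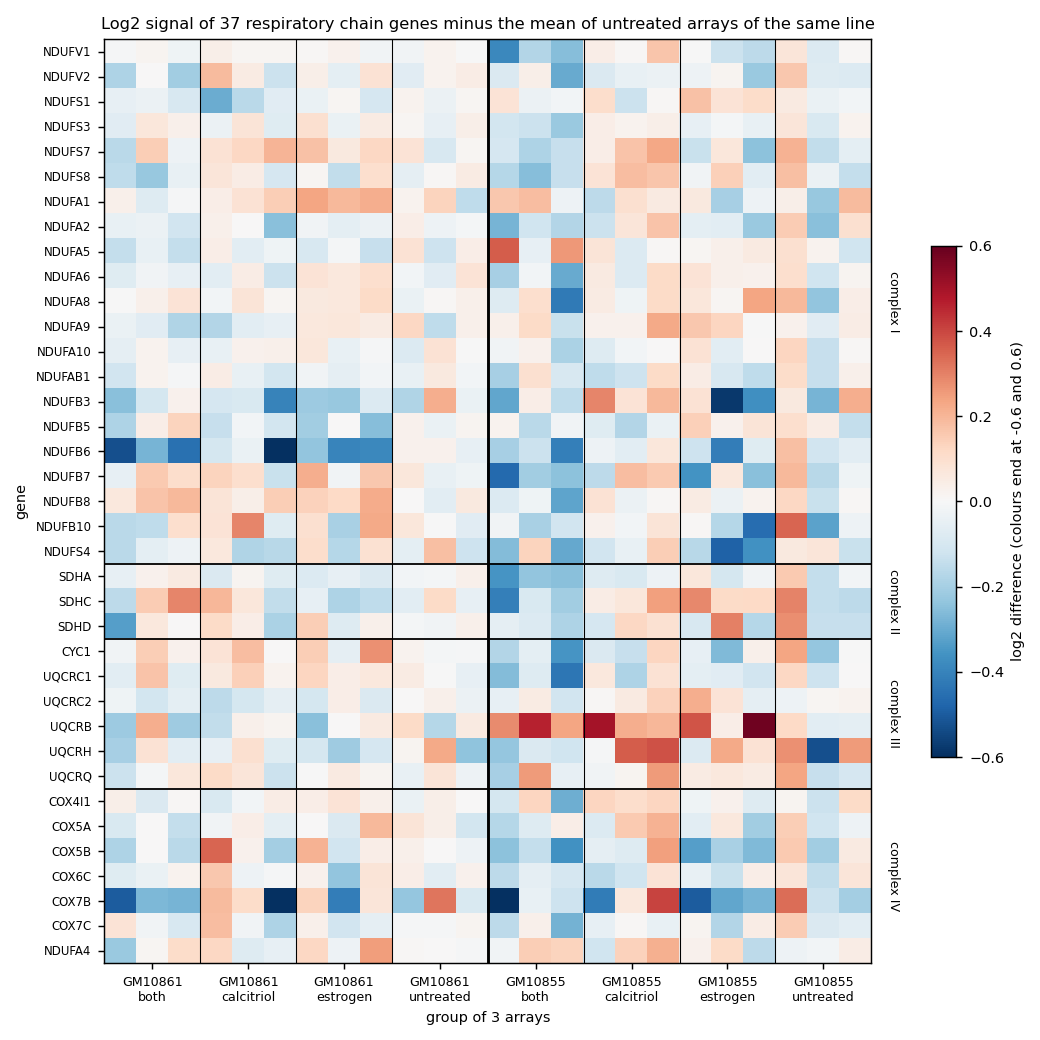
Log2 signal of each of 37 members (rows, by complex) on each of 24 arrays (columns, in groups of 3), minus the mean of the 3 untreated arrays of the same line. Blue is lower and red higher, with the colours ending at -0.6 and 0.6; the GM10855 arrays given both agents hold the largest block of blue, with 31, 23 and 33 of 37 members below 0.

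The members' median lay furthest from that of all genes where both agents were given together. With both agents against untreated, the members' median log2 change was -0.07, and 32 of 37 were below 0, against a median of 0.00 and 9213 of 18418 below 0 over all genes. Against estrogen alone the median was -0.07, with 33 of 37 below 0 and 55.0% below 0 over all genes. Against calcitriol alone the median was -0.10, with 34 of 37 below 0 and 48.6% below 0 over all genes. These 3 comparisons share the arrays given both agents. For single agents the median was 0.01 for calcitriol against untreated, with 17 of 37 below 0, and 0.00 for estrogen against untreated, with 20 of 37 below 0. By complex, both agents against untreated gave medians of -0.08 in complex I, -0.10 in complex II, -0.06 in complex III and -0.07 in complex IV. These medians are descriptions with no test, and members that share arrays do not vary independently.

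Complex I, which makes up 21 of the 37 members, held those with the smallest p-values. NDUFB6 is an accessory subunit of the membrane arm. Its log2 signals were 6.16, 6.41 and 6.24 in GM10861 with both agents, 6.59, 6.65 and 6.01 with calcitriol, 6.45, 6.30 and 6.30 with estrogen, and 6.72, 6.71 and 6.64 untreated. In GM10855 they were 6.08, 6.15 and 5.87 with both agents, 6.25, 6.22 and 6.35 with calcitriol, 6.15, 5.86 and 6.21 with estrogen, and 6.46, 6.16 and 6.21 untreated. All arrays given both agents lay below every untreated array of their own line, although in GM10855 the gap was narrow. The log2 change of NDUFB6 averaged over the lines was -0.33 ± 0.0919 (SE, 6 arrays against 6) with both agents, at an adjusted p of 0.087 (limma), lower in 6 of 6 arrays. With estrogen alone it was -0.27 ± 0.0919 (adjusted p = 0.789), and over the 3 treated groups -0.25 ± 0.0751 (adjusted p = 0.214). The call turned with small choices: the adjusted p for both agents was 0.0499 when probe sets with a mean log2 signal under 5 were left out, 0.0414 with eBayes using a trend and robust fit, and 0.0179 without the third calcitriol array of GM10861.

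NDUFS7 and NDUFS8, iron-sulfur proteins of the arm that reduces ubiquinone, and NDUFV1, the flavoprotein that accepts electrons from NADH, had the smallest p-values for both agents against calcitriol alone. Their log2 changes were -0.22 ± 0.069 (adjusted p = 0.439), -0.24 ± 0.0627 (adjusted p = 0.409) and -0.18 ± 0.05 (adjusted p = 0.409) in limma. NDUFS8 had log2 signals of 6.97, 6.89 and 7.08 in GM10861 with both agents, against 7.20, 7.17 and 7.02 with calcitriol alone. In GM10855 it had 6.94, 6.86 and 6.97 with both agents, against 7.20, 7.30 and 7.28 with calcitriol alone. The groups overlapped in GM10861 and did not overlap in GM10855. Upward, the 3 smallest p-values in this comparison belonged to NDUFS1, NDUFB5 and NDUFA5, at 0.07, 0.06 and 0.05. Against estrogen alone, NDUFA6, an accessory subunit of the peripheral arm, had the smallest p, at -0.17 ± 0.0572 (adjusted p = 0.305), and its groups did not overlap within either line. NDUFS8 at -0.17 and NDUFA9 at -0.12 came next, and NDUFA5, NDUFB3 and NDUFS4 led upward at 0.06, 0.11 and 0.05.

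Other members with the smallest p-values stayed further from the threshold. With calcitriol against untreated, NDUFS7 had 0.14 ± 0.069 (adjusted p = 0.759 in limma), UQCRB 0.14 and NDUFS8 0.08, and on the other side NDUFS1 had -0.09, NDUFB6 -0.14 and NDUFB5 -0.09. With estrogen against untreated, NDUFB8 had 0.09, UQCRB 0.13 and NDUFA9 0.08, while NDUFB3 had -0.23 and NDUFS4 -0.17 beside NDUFB6. With both agents against untreated, NDUFV1 had -0.14 and NDUFS8 -0.17, and UQCRB at 0.13, NDUFA5 at 0.04 and NDUFA1 at 0.04 were the smallest p-values upward. Calcitriol against estrogen gave 0.23 for NDUFB3, 0.14 for NDUFS7 and 0.16 for COX5B, and -0.13 for NDUFS1, -0.08 for NDUFA9 and -0.07 for NDUFA6. The interaction gave -0.24 for NDUFS8, -0.23 for NDUFS7 and -0.16 for NDUFA6, against 0.10 for NDUFB5, 0.10 for NDUFS4 and 0.07 for NDUFA5. Over the 3 treated groups against untreated, SDHA had -0.08 and NDUFS4 -0.11, and UQCRB had 0.13, NDUFB8 0.05 and NDUFA1 0.06.

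COX7B, a small subunit of complex IV, was the least repeatable member. Its log2 signals were 7.65, 7.88 and 7.87 in GM10861 with both agents and 7.92, 8.47 and 8.06 in untreated GM10861. In GM10855 they were 7.16, 7.82 and 7.74 with both agents and 8.20, 7.74 and 7.66 untreated. The third calcitriol array of GM10861 read 6.995, below the other 11 arrays of that line. The groups overlapped in GM10855, and the change over both lines was -0.32 ± 0.188 (unadjusted p = 0.102 and adjusted p = 0.576 in limma). The 5 members with an unadjusted p under 0.05 in that comparison were NDUFB6, NDUFV1, NDUFS8, SDHA and COX5B, a subunit of complex IV.

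The same comparisons were then read within each line. In GM10861, both agents against untreated called 0 of 37 members (limma), against 0.184% of probe sets, with 1 member and 6.71% of probe sets at an unadjusted p under 0.05. There the median change was -0.03, and 29 of 37 members were below 0. Over all genes, the median difference from the untreated mean was 0.007, -0.005 and -0.001 on the GM10861 arrays given both agents. In GM10855, 2 of 37 members fell, which is 5.41% of the members, against 2.33% of all probe sets called in either direction and 0.363% called lower. All members have a mean log2 signal above 5. With only probe sets of a mean of at least 5 tested, 4.9% were called in either direction, near the members' share, and 121 of 14526 were called lower. The GM10855 median was -0.14, or -0.200 to -0.0620 when single arrays were left out. In this comparison 30 of 37 members were below 0, and 9 had an unadjusted p under 0.05, as did 14.9% of probe sets. Over all genes, the median difference from the untreated mean was -0.016, -0.001 and 0.011 on the GM10855 arrays given both agents. By complex, the GM10855 medians were -0.14 in complex I, -0.24 in complex II, -0.09 in complex III and -0.11 in complex IV. The complex II median is over 3 genes and is the value of SDHC by its chosen probe set, with SDHD at -0.11. By the probe sets among IDs of their own chromosomes, SDHC had -0.31 (adjusted p = 0.331) and SDHD -0.29 (adjusted p = 0.245 in limma). Both agents against calcitriol alone in GM10855 called 0 members (limma) and 0.0519% of probe sets, with 15 members and 12.8% of probe sets at an unadjusted p under 0.05. In that comparison the median was -0.16 and 31 of 37 members were below 0. For these counts within a line, the share of all genes below 0 is not given here.

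The members that fell in GM10855 were NDUFV1 of complex I and SDHA of complex II, the flavoproteins at which electrons enter each complex. NDUFV1 had log2 signals of 8.53, 8.75 and 8.67 with both agents in GM10855, against 8.99, 8.84 and 8.93 untreated. Its values were 8.96, 8.93 and 9.09 with calcitriol and 8.92, 8.79 and 8.77 with estrogen in that line. All 3 arrays given both agents lay below the other 9 arrays of GM10855. The change was -0.27 ± 0.0707 (SE, n = 3 against 3; adjusted p = 0.0414 in limma). In GM10861 NDUFV1 lay between 8.87 and 8.93 on all 12 arrays, and the groups given both agents and untreated overlapped.

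SDHA had log2 signals of 9.05, 9.17 and 9.16 with both agents in GM10855, against 9.56, 9.27 and 9.39 untreated. It read 9.33, 9.32 and 9.38 with calcitriol and 9.48, 9.30 and 9.39 with estrogen. Again the 3 arrays given both agents lay below the other 9 of the line. The change was -0.28 ± 0.0744 (SE, n = 3 against 3; adjusted p = 0.0469 in limma). The difference between the lines in this response was called for 0 members and 0.0141% of probe sets (limma), with 6 members and 10.9% of probe sets at an unadjusted p under 0.05. It was 0.29 ± 0.105 for SDHA (adjusted p = 0.309) and 0.27 ± 0.1 for NDUFV1 (adjusted p = 0.319), GM10861 minus GM10855. Both calls were thin: they were lost when all probe sets were tested, when arrays were centred on their medians, with array weights and when only the arrays compared were fitted. Leaving out 1 array at a time ended the call of NDUFV1 in 14 of 24 fits and that of SDHA in 21 of 24, among them the fits without the first or the third untreated array and without the first or the third array given both agents in GM10855.

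**Figure D2:**
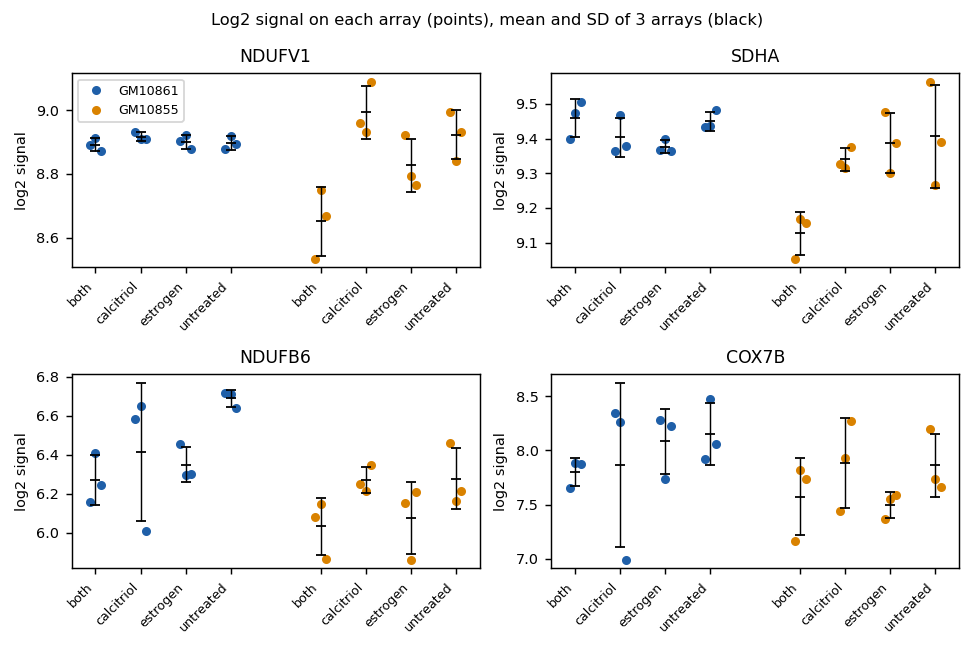
Log2 signal (vertical axis, scaled per gene) of NDUFV1, SDHA, NDUFB6 and COX7B on each array, by group, with GM10861 in blue left of GM10855 in orange; black bars are the mean and SD of 3 arrays. NDUFV1 and SDHA were lowest in GM10855 given both agents, at 8.53 to 8.75 and 9.05 to 9.17, and COX7B spread widest within groups.

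Not every member moved with the median in GM10855. UQCRB, a subunit of complex III near its ubiquinone site, had 5.62, 5.80 and 5.58 with both agents, 5.84, 5.56 and 5.54 with calcitriol and 5.72, 5.38 and 5.92 with estrogen, against 5.46, 5.28 and 5.28 untreated. All arrays given both agents lay above the untreated ones, but the change of 0.33 ± 0.133 did not pass (adjusted p = 0.225 in limma). NDUFA5, an accessory subunit of complex I, had 0.19 ± 0.0906 (adjusted p = 0.323), and NDUFA1 had 0.11. UQCRC1, a core protein of complex III, had the third smallest p downward, at -0.26 ± 0.0939 (adjusted p = 0.169). Against calcitriol alone in GM10855, NDUFV1 had -0.34 ± 0.0707 (adjusted p = 0.0729), NDUFS8 -0.33 and NDUFB7 -0.37, with NDUFA5 at 0.19 on the other side. In GM10861, both agents against untreated gave -0.42 ± 0.13 for NDUFB6 (adjusted p = 0.413), -0.14 for NDUFS8 and -0.35 for COX7B, and upward 0.14 for NDUFB8, 0.10 for SDHC and 0.07 for NDUFB7.

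**Figure D3:**
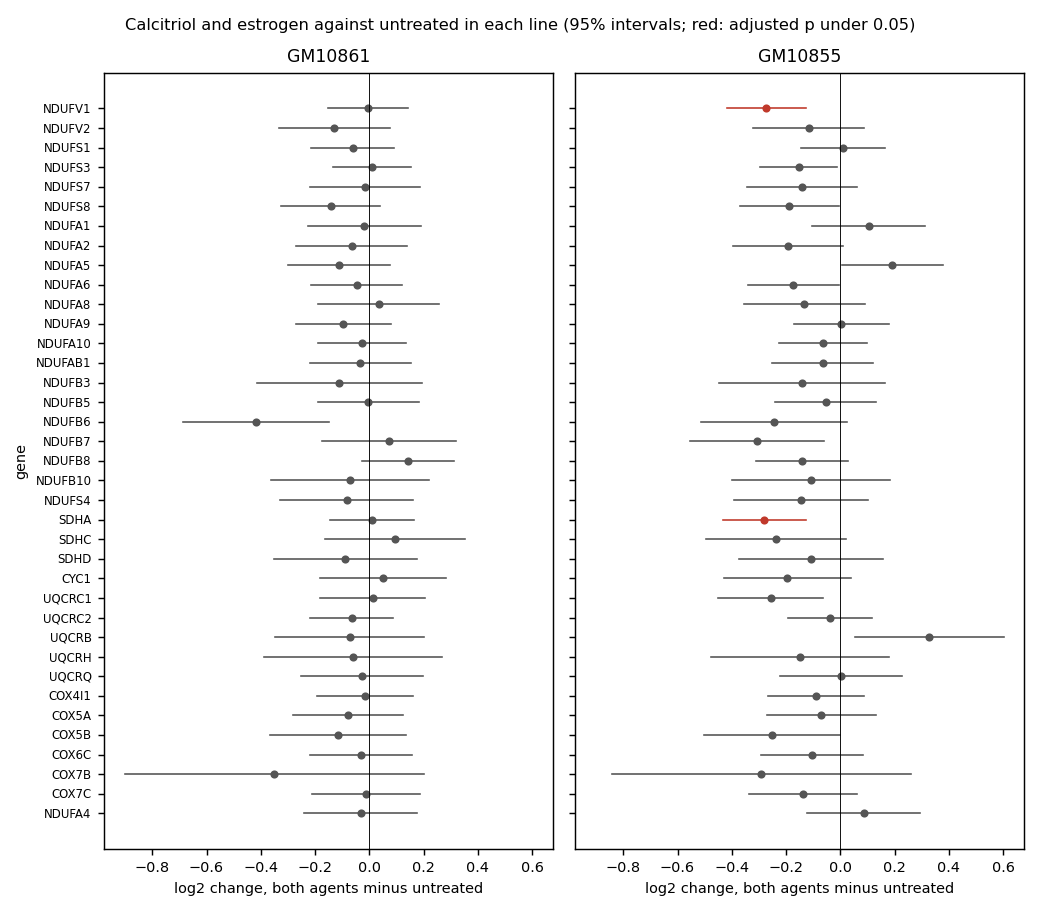
Log2 change of each member with both agents against untreated in GM10861 (left) and GM10855 (right), with 95% intervals from limma; red marks an adjusted p under 0.05. Only NDUFV1 and SDHA in GM10855 are red, and 30 of 37 points lie below 0 in GM10855 and 29 of 37 in GM10861. The share of all genes below 0 is not shown.

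The members' median was then read array by array. Relative to the untreated mean of the line, the members' median was -0.16, -0.05 and -0.18 on the GM10855 arrays given both agents, against 0.13, -0.13 and 0.00 on the untreated arrays. The lowest untreated array therefore lay within the range of the arrays given both agents, and 33 of its 37 members were below the untreated mean. In GM10861 the medians were -0.09, 0.00 and -0.03 with both agents, against 0.01, 0.00 and 0.00 untreated. The within-group SD of these array medians was 0.0691. The untreated GM10855 array with the lowest member median had an array median of 5.50, and the one with the highest member median had 5.44; the part of such differences between arrays in the result was not tested. Of 8 B cell markers, 4 were called in the same comparison, against 2.33% of all probe sets: CD79A rose by 0.90, CR2 by 0.70, PAX5 by 0.50 and MS4A1 by 0.45 in GM10855 with both agents (adjusted p = 1.04e-06 to 0.000865 in limma). The other 4 did not pass: CD79B had -0.22 (adjusted p = 0.192), lower in 3 of 3 arrays, CD40 -0.10, CD22 0.20 and BLK 0.01. The mean over 8 B cell markers was 8.12 to 8.16 on those arrays against 7.71 to 7.95 on the untreated ones, and its part in the members' shift was not tested. In RNA from whole cultures, fewer cells of a kind and less RNA per cell cannot be told apart.

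**Figure D4:**
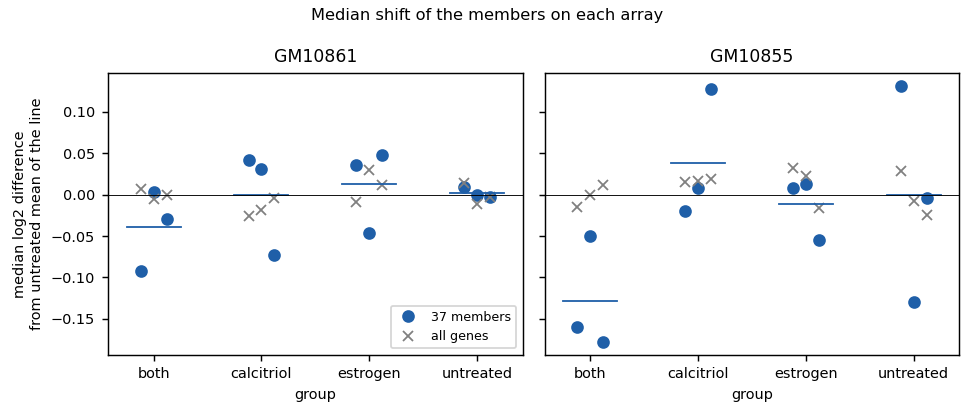
Median over 37 members (blue) and over all genes (grey crosses) of the log2 difference from the untreated mean of the line, 1 point per array, with group means as lines. In GM10855 the arrays given both agents lie at -0.16, -0.05 and -0.18, and the untreated arrays spread over 0.13, 0.00 and -0.13.

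Members varied together across arrays after the group means were removed. Over 24 arrays, the median correlation of the 666 pairs of members was 0.33, and 82.9% of pairs were positive. The same median was 0.37 among 20 other nuclear subunits, 0.21 among 17 ATP synthase genes, 0.19 among 30 assembly factors, 0.17 among 11 tricarboxylic acid cycle genes and 0.03 among 16 regulators of mitochondrial biogenesis. In the same order, 73.2%, 69.1%, 76.6%, 76.4% and 56.7% of pairs were positive. Values over all genes were not computed, so a trait particular to the members is not shown. The closest pair was NDUFV1 with NDUFAB1, the mitochondrial acyl carrier protein, at 0.89. SDHC with UQCRQ followed at 0.86, NDUFAB1 with UQCRQ at 0.84, NDUFB7 with SDHD at 0.81 and NDUFA8 with NDUFB8 at 0.81. Near-identical copies may contribute to the values of SDHC and SDHD, as said above. Of 37 members, 36 correlated positively with the median of the others, CYC1 (cytochrome c1) most at 0.82, while NDUFA5 had -0.20. These values are descriptions, and the points share arrays, RNA and a joint normalisation.

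Between the lines, more members were called. Averaged over the 4 agents, 15 of 37 members were called, all of them higher in GM10861 on the deposited scale (limma), and after cyclic loess, an alternative normalisation between arrays, 11 were called, 9 higher and 2 lower. The deposited scale gave 40.5% of the members, against 41.8% of all probe sets called in either direction, 23.4% higher and 18.4% lower. All members have a mean log2 signal above 5. With only probe sets of a mean of at least 5 tested, 55.2% were called, 4693 of 14526 higher and 3326 lower. After cyclic loess 4416 of 21214 probe sets were called higher and 3850 lower, together a larger share than the 11 of 37 members. The members' median was 0.11, against 0.02 after cyclic loess; over all genes it was -0.02, against -0.01 after cyclic loess. The called log2 differences ran from 0.11 to 0.31, or 1.08-fold to 1.24-fold. Of the 15, 12 were positive under each of the 4 agents, but these genes were picked by the call on the same arrays. The share of all called probe sets with 1 sign under each agent was not counted. By complex, 10 of 21 measured genes of complex I were called, 1 of 3 of complex II, 3 of 6 of complex III and 1 of 7 of complex IV, with medians of 0.12, 0.11, 0.12 and 0.04. After cyclic loess the medians were 0.03 in complex I, 0.01 in complex II, 0.08 in complex III and -0.05 in complex IV, where the sign turned.

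The call in 9 members held under every alternative and without any single array: NDUFS1, NDUFA6, NDUFA10, NDUFAB1, NDUFB3, NDUFB6, NDUFS4, UQCRC1 and UQCRC2. NDUFA6 was the clearest. Its log2 signal had a lowest value of 8.22, a median of 8.34 and a highest value of 8.45 in GM10861, against 7.76, 8.09 and 8.18 in GM10855. All 12 arrays of GM10861 lay above all 12 of GM10855. The difference was 0.31 ± 0.0405 (SE; adjusted p = 1.06e-06 in limma) and 0.22 after cyclic loess.

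Both core proteins of complex III were among these genes. UQCRC1 had 7.29, 7.40 and 7.53 as lowest, median and highest log2 signal in GM10861, against 6.78, 7.14 and 7.33 in GM10855, and differed by 0.27 ± 0.0469 (adjusted p = 4.15e-05 in limma). UQCRC2, the other core protein, had 10.53, 10.63 and 10.72 in GM10861 against 10.25, 10.38 and 10.58 in GM10855, and differed by 0.24 ± 0.0372 (adjusted p = 9.59e-06). In each gene the medians were apart and the ranges overlapped slightly. NDUFS1, the largest core subunit of complex I, had 8.93, 9.18 and 9.25 in GM10861 against 8.75, 8.90 and 9.05 in GM10855, and differed by 0.25 ± 0.037 (adjusted p = 4.58e-06). Here only the low end of GM10861 reached into the range of GM10855.

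Accessory subunits of complex I made up the rest of the 9. The differences were 0.27 for NDUFB6, 0.26 for NDUFB3, 0.26 for NDUFS4, 0.22 for NDUFAB1 and 0.18 for NDUFA10, with adjusted p-values of 0.000276 to 0.00638 in limma. A second, dimmer probe set of NDUFS4 had 0.06 ± 0.0718 (adjusted p = 0.544), so the call of that gene rests on the brighter one. Another 6 members were called higher on the deposited scale but not after cyclic loess. They were NDUFA5 at 0.19, CYC1 at 0.16, COX7C at 0.15, NDUFA8 at 0.14, NDUFS3 at 0.11 and SDHA at 0.11. NDUFA8 also lost its call in 11 of 24 fits that left out 1 array, and CYC1 in 4.

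Members that did not pass included most of complex IV. COX7B differed by 0.27 ± 0.133 (adjusted p = 0.108 in limma). NDUFA4 had -0.12 ± 0.0504 (adjusted p = 0.0645), with a lowest value of 7.83, a median of 8.05 and a highest of 8.30 in GM10861 against 7.99, 8.18 and 8.36 in GM10855. After cyclic loess NDUFA4 was called lower in GM10861 at -0.21 (adjusted p = 0.00261), and so was NDUFB5, an accessory subunit of complex I, at -0.11 (adjusted p = 0.0368), against -0.02 on the deposited scale. SDHD, a membrane anchor subunit of complex II, had 0.14 ± 0.0639 (adjusted p = 0.0798) by its chosen probe set and -0.02 ± 0.06 (adjusted p = 0.866) by the one among IDs of its own chromosome.

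**Figure D5:**
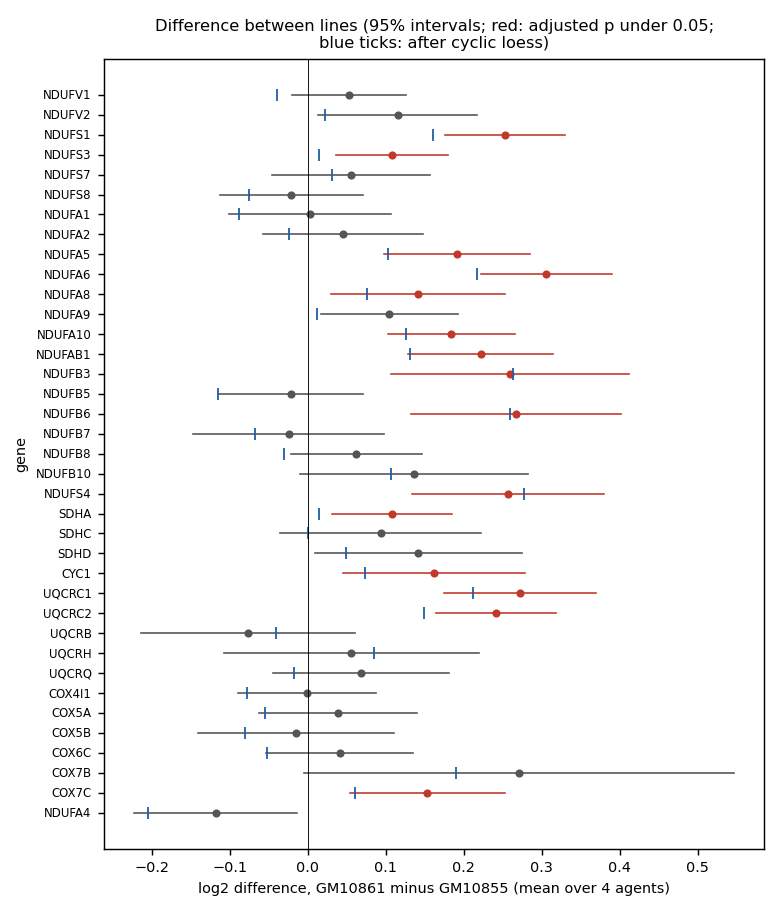
Log2 difference of each member between GM10861 and GM10855, averaged over the 4 agents, with 95% intervals from limma (n = 12 arrays a line); red marks an adjusted p under 0.05 and blue ticks the value after cyclic loess. All 15 red genes lie above 0 on the deposited scale, and cyclic loess moves most values toward or below 0, leaving 9 of them called.

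In untreated arrays alone, 5 of 37 members were called, all higher in GM10861 on the deposited scale, with 2 called, both higher, after cyclic loess. That is 13.5% of the members, against 24.3% of all probe sets called and 16.2% called higher. After cyclic loess 21.6% of probe sets were called. With only probe sets of a mean log2 signal of at least 5 tested, 34.9% were called. The differences of the 5 members were 0.41 for NDUFB6, 0.35 for NDUFS1, 0.32 for UQCRC2, 0.30 for NDUFA5 and 0.28 for NDUFA6 (adjusted p = 0.000839 to 0.0227 in limma). In all 5, every untreated array of GM10861 lay above every untreated array of GM10855, but these genes were picked by the call. Over all 37 members, the untreated groups did not overlap in 7. These took in NDUFAB1, higher at 0.20, and NDUFA4, wholly lower in GM10861 at -0.10, neither of them called. The share of all genes without overlap was not counted. The median over the members in untreated arrays was 0.10 on the deposited scale, and after cyclic loess it turned to -0.02.

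Other genes of mitochondrial energy metabolism were read in the same way. With both agents against untreated over both lines, 0 genes of the 5 lists were called (limma). Of all probe sets, 1.15% were called and 10.9% had an unadjusted p under 0.05. At that unadjusted p there were 4 of 20 other nuclear subunits, 2 of 17 ATP synthase genes, 5 of 30 assembly factors, 2 of 16 regulators and 1 of 11 tricarboxylic acid cycle genes. The smallest p-values downward were those of FOXRED1, a complex I assembly factor, at -0.22 ± 0.062 (adjusted p = 0.0902), and CYCS, cytochrome c, at -0.20 ± 0.0606 (adjusted p = 0.124). In GM10855, NDUFAF7, a methyltransferase that acts in complex I assembly, rose by 0.38 with both agents (adjusted p = 0.0321), and UQCC2, an assembly factor of complex III, fell by 0.35 (adjusted p = 0.0407). They were the only genes of the 5 lists called in GM10855, where 2.33% of all probe sets were called. How far these calls held under the alternatives is not reported here. The median over the ATP synthase genes in that comparison was 0.00, beside -0.14 over the 37 members and -0.14 over the other nuclear subunits.

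Between the lines, 41.8% of all probe sets were called on the deposited scale (23.4% higher and 18.4% lower), with 4416 of 21214 higher and 3850 lower after cyclic loess. With only probe sets of a mean log2 signal of at least 5 tested, 55.2% were called. The lists are read beside these shares. With GM10861 over GM10855 on the deposited scale, 4 other nuclear subunits were called higher and 1 lower of 20, and 3 higher and 1 lower after cyclic loess, where the list's median turned to -0.05 against 0.02. NDUFA12 led with 0.37 ± 0.0483 (adjusted p = 9.19e-07 in limma), and NDUFB11 had -0.18. Of 17 ATP synthase genes, 9 were higher and 1 lower, or 5 and 2 after cyclic loess, with ATP5PD at 0.27 and ATP5ME at -0.20. Of 30 assembly factors, 11 were higher and 1 lower, or 11 and 3 after cyclic loess. Among them NDUFAF4 had 0.41 and COX11, which inserts copper into complex IV, had 0.34, and NDUFAF1, a complex I assembly factor, had -0.62 ± 0.0594 (adjusted p = 5.09e-09). All 12 arrays of GM10861 lay below those of GM10855 for NDUFAF1. Of 16 regulators, 9 were higher, or 8 after cyclic loess. Among them TFAM, which packages mitochondrial DNA and helps start its transcription, had 0.34. GABPB1, a subunit of the ETS factor GABP, had 0.30. Of 11 tricarboxylic acid cycle genes, 7 were higher and 1 lower, or 5 and 4 after cyclic loess, with SUCLA2 at 0.30, IDH3A at 0.26 and MDH2 at -0.10. Subunits encoded by mitochondrial DNA were not analysed here.

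Promoters of 32 of the 37 members were matched to RefSeq sequence (GRCh38.p14, 250 bases before to 50 after the start). They were searched on both strands for motifs of factors known to drive nuclear respiratory genes, and for nuclear receptor repeats, among 14237 genes. The NRF1 motif (GCGCA, 1 base of any kind, then GCGC) lay in 5 of 32 members (15.6%) and in 8.91% of all genes. The ETS motif CCGGAAG lay in 9 members (28.1%) against 14.6%, and the YY1 motif AAGATGGC in 5 members (15.6%) against 4.07%. A direct repeat of AGGTCA with 3 bases between its copies, the kind bound by the vitamin D receptor with RXR, lay in 0 members and 0.00702% of genes, and the estrogen receptor's inverted repeat, GGTCA and TGACC with 3 bases between them, in 0 members and 0.0211%. Exact copies of the direct and the inverted repeat lay in only 1 and 3 of the 14237 genes. Finding 0 in 32 members therefore says nothing about receptor sites at these genes. Only exact letters in this window were read, and a match is not a shown binding site. The promoters below are those of the members called with both agents in GM10855, and of 3 of the 9 members called between the lines under every alternative. These 3 all hold a motif and do not stand for the 9. Of the others, NDUFS4 holds a YY1 motif. No motif was found for NDUFA10, NDUFAB1, NDUFB3, NDUFB6 and UQCRC2, some of which may lack a matched promoter. Capitals mark the NRF1, ETS or YY1 motif on either strand. SDHA holds 4 copies of the NRF1 motif, UQCRC1 holds 1 NRF1 and 1 YY1 motif, NDUFS1 holds 1 ETS motif, NDUFA6 holds 1 YY1 motif, and NDUFV1 holds none of the 5 motifs.
NDUFV1 (chr11:67606686-67606985, plus strand): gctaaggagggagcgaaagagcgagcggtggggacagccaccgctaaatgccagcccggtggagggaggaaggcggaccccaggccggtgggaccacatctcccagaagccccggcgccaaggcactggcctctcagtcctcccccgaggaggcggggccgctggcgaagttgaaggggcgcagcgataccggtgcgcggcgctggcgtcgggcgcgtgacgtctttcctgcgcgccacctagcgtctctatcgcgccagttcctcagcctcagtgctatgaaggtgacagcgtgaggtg
SDHA (chr5:218070-218369, plus strand): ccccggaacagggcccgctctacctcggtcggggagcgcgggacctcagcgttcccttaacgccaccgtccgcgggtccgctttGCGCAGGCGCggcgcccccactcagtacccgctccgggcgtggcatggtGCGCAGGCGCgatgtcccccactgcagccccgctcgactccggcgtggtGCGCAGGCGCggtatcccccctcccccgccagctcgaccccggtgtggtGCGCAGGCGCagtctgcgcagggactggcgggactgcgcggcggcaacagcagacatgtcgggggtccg
UQCRC1 (chr3:48609597-48609896, minus strand): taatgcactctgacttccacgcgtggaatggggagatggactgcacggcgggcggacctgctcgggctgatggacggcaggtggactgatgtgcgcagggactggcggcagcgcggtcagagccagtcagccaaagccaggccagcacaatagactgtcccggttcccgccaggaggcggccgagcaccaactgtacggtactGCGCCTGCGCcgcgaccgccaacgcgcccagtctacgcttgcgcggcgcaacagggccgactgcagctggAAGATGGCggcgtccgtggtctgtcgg
NDUFS1 (chr2:206159395-206159694, minus strand): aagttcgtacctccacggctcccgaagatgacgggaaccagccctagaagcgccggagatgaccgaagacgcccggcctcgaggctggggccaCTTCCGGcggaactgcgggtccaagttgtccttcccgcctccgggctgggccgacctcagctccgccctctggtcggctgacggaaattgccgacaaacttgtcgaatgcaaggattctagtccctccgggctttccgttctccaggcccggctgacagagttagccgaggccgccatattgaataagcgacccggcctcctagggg
NDUFA6 (chr22:42090723-42091022, minus strand): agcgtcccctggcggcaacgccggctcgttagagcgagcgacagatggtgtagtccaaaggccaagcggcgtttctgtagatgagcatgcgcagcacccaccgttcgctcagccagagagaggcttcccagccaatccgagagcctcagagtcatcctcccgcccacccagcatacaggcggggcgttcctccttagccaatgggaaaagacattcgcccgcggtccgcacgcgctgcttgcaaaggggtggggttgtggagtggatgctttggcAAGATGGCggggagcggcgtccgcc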

How the data were processed

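RNA of 24 samples was measured on Affymetrix arrays, 1 sample per array. The authors deposited log2 probe set signals, and the submitters' processing notes name RMA and Affymetrix Expression Console 1.0.1. RMA equalises array distributions, which hides shifts common to most genes, and compresses changes of dim probe sets. No source used here names the genome build. Of 33297 probe sets, 21214 with at least 1 symbol were tested in R 4.3.3 with limma 3.58.1 (lmFit, eBayes), with 1 mean per group over all arrays, 16 residual and 6.73 prior degrees of freedom, and an adjusted p threshold of 0.05. Comparisons were averaged over lines, made within each line, or made between lines. Genes named are members or list genes past the threshold, or else those with the smallest p-values: the 3 in each direction for members. Members and lists were chosen with earlier results of these data known. Alternatives were a filter at a mean log2 signal of 5, all probe sets, median centring, cyclic loess, trend and robust eBayes, array weights, fits to the compared arrays, averaged probe sets, each array left out, and, chosen after seeing the data, the probe set on the gene's own chromosome. No detection p-values were used. The number of arrays limits the precision.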

Additional observations from a re-analysis of the deposited data

How the results depend on the processing

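With both agents against untreated over both lines, 1 member was called instead of 0 with the filter at a mean log2 signal of 5 and with trend and robust eBayes, and 0 to 1 when single arrays were left out. In GM10855, the 2 calls for both agents against untreated became 0 with all probe sets, median centring, array weights or only the arrays compared, and 0 to 2 without single arrays. In that comparison the median over the members ran between -0.200 and -0.0620, the end nearest 0 without the first untreated array. Both agents against estrogen alone in GM10855 gave 1 call, SDHA, with cyclic loess and with trend and robust eBayes. Both agents against calcitriol alone in GM10855 gave 1 call, NDUFV1, with the filter, cyclic loess, trend and robust eBayes and array weights, and 0 to 1 without single arrays. Calcitriol against estrogen in GM10855 gave 0 to 1, the 1 being NDUFB3 without the first estrogen array. The median for both agents against untreated stayed below 0 over both lines and in each line after median centring and after cyclic loess.

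Between lines, the median over the members was 0.0224 after cyclic loess. In untreated arrays the calls were 2 and the median -0.0233 after cyclic loess, 3 calls with only the arrays compared, and 3 to 6 calls with medians of 0.0302 to 0.197 without single arrays. Leaving out single arrays moved the median of the line difference in response over -0.0136 to 0.107 for estrogen, -0.00123 to 0.141 for both agents, -0.0435 to 0.0890 for the 3 treated groups and 0.0219 to 0.174 for the interaction. In GM10855 it moved the median for the 3 treated groups over -0.105 to 0.0216. The untreated arrays of GM10855 set most of these ends. Centring arrays on their medians raised the share of higher calls among all probe sets called between the lines to 64.8%, against 56.1% on the deposited scale. The cause of these moves was not tested. No paired analysis was possible because replicate numbers follow accession order and pair nothing. With both agents against untreated within a line, the 95% interval lay within 0.25 of 0 on the log2 scale for 16 of 37 members in GM10861 and 6 in GM10855.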
